A study of Rattus norvegicus with 29 samples.

Results

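The aminoacyl-tRNA synthetases were followed here across liver RNA of 29 male Sprague-Dawley rats dosed with PMCol, a pentamethylchromanol that carries the ring system of vitamin E without the long side chain. Members were the transcript clusters whose single gene symbol in the array annotation was that of a synthetase on a list of 35, and 30 genes had such a cluster, in 31 of the 27342 clusters on the array. All 19 listed cytosolic enzymes were measured, and 11 of 16 mitochondrial ones. Cars2, Ears2, Iars2, Mars2 and Wars2 had no single-symbol cluster and were not analysed here. No filter on low values was applied, so every measured member entered every test.

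Rats aged 6 to 7 weeks received PMCol or the methylcellulose vehicle by oral gavage once a day. The groups were 2000 mg/kg at day 8 (n = 6) and vehicle at day 8 (n = 6), both after 7 daily doses, and vehicle (n = 6), 200 mg/kg (n = 6) and 2000 mg/kg (n = 5) at day 29, all after 28 daily doses. The labels name 1 strain, 1 sex and 1 tissue, the left liver lobe, and describe arrays of the same group as biological replicates. Animals given 200 mg/kg for the shorter time were not analysed here. The values are log2 signals that were deposited after centring on each cluster's median over the 29 arrays. They therefore show how animals differ and not how much of a transcript was present, so levels of different genes cannot be compared and the labelled tissue cannot be checked by marker levels. In a whole liver lobe, fewer cells of a type and less RNA per cell cannot be told apart.

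Aminoacyl-tRNA synthetases attach each amino acid to its tRNA and so supply both protein synthesis in the cytosol and the separate translation system of the mitochondrion. The cytosolic and mitochondrial enzymes are mostly made from different nuclear genes, and by convention symbols ending in 1 or in a subunit letter stand for the cytosolic forms and those ending in 2 for the mitochondrial forms. Gars1 and Kars1 serve both compartments. Several cytosolic synthetases sit with the scaffold proteins Aimp1, Aimp2 and Eef1e1 in the multisynthetase complex. In mammals, uncharged tRNA activates the kinase encoded by Eif2ak4, phosphorylation of eIF2 then favours translation of the transcription factor ATF4, and ATF4 is known to raise many cytosolic synthetase transcripts along with amino acid transport and synthesis genes.

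Promoters were searched for TGATGNAA and, for the other strand, TTNCATCA, the core letters of the C/EBP-ATF response element to which ATF4 binds. The windows are RefSeq promoters of assembly GRCr8, 250 bases before to 50 after the transcript start, and 17 cytosolic and 16 mitochondrial members matched an entry. A match was present for 7 of the 17 cytosolic members (41.2%), for 0 of the 16 mitochondrial members and in 1332 of all 33469 windows (3.98%). Members are counted by gene and the whole set by window, and a gene such as Mars2 can have several windows. Gars1 and Rars1 had no entry. The genes with a match were Aars1, which fell at 2000 mg/kg, and Cars1, Iars1, Mars1, Nars1, Tars1 and Yars1. Sites of 6 of these genes, all but Aars1, are shown because a match is the sequence feature that the matched cytosolic members share, with 12 bases on each side where the window holds them, read on the gene's strand, with the match in capitals and its first base counted from the transcript start.
Cars1 (chr1:208225333-208225364, - strand, first capital at 18): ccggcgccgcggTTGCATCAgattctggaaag
Iars1 (chr17:15193657-15193688, - strand, first capital at -24): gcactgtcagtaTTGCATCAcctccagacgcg
Mars1 (chr7:65023751-65023782, - strand, first capital at -17): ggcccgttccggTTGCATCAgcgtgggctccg
Nars1 (chr18:60275777-60275808, - strand, first capital at -14): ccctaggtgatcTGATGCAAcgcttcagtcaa
Tars1 (chr2:62114810-62114841, - strand, first capital at -27): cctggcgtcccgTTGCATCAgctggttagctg
Yars1 (chr5:146820189-146820212, + strand, first capital at 39): tacgagctcagcTGATGCAAcctg
A match is a description of letters and not evidence of binding. The 6 sites shown, Aars1 not being among them, carry the letters TGATGCAA or, read on the other strand, TTGCATCA. The matches at Nars1, Mars1, Iars1 and Tars1 lie between -27 and -14, close before the start, and those at Cars1 and Yars1 lie after it.

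The whole window of Yars1 is given because its transcript had the lowest adjusted p of all members at 2000 mg/kg on both days.
Yars1 (chr5:146819913-146820212, + strand): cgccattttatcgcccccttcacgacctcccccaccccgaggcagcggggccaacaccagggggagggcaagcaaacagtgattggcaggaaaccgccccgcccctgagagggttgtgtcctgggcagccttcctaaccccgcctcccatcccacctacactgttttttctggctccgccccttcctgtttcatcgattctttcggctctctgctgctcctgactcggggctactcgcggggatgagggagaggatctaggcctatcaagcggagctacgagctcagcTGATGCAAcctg
Members with and without a match both changed. Among cytosolic genes with a match, 4 of 7 rose and 1 fell at 2000 mg/kg on day 8 (median log2 fold change 0.26), and among the 10 without one 5 rose and 0 fell (median 0.20), where 18.6% of all clusters passed. On day 29 3 of 7 with a match rose and 1 fell (median 0.03), and 6 of 10 without a match rose and 1 fell (median 0.24), where 21.6% of all clusters passed. The fall without a match was that of Hars1, a gene whose clusters disagreed. Farsb, the member with the largest rise on both days, had no match in this window.

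The first comparison asked what 7 daily doses of 2000 mg/kg changed. Of 19 cytosolic synthetases 11 rose and 1 fell, and of 11 mitochondrial ones 3 rose and 1 fell. Over all 27342 clusters 18.6% passed the same test, 9.32% in each direction, against 63.2% of the cytosolic and 36.4% of the mitochondrial members. The median log2 fold change was 0.26 over the cytosolic and 0.13 over the mitochondrial members, beside -0.0049 over all clusters. Each fold change is a log2 fold change ± SE, estimated with limma in 1 model of all groups, and a gene was called where limma's adjusted p (Benjamini-Hochberg, over all clusters) was below 0.05. Among clusters with a single gene symbol the share called was 23.5%.

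Farsb, Yars1 and Nars1 showed the largest rises at day 8. Farsb, the beta subunit of phenylalanyl-tRNA synthetase, ran from 0.35 to 0.73 in animals given 2000 mg/kg (median 0.44, n = 6), against -0.17 to 0.13 in vehicle animals (median -0.06, n = 6). The groups did not overlap, and the log2 fold change was 0.54 ± 0.13, a fold of 1.45 (limma adjusted p = 0.00311). Yars1, the tyrosyl-tRNA synthetase, ran from 0.19 to 0.72 in animals given 2000 mg/kg (median 0.48), against -0.16 to -0.02 in vehicle animals (median -0.08). Every treated animal lay above every vehicle animal, with a log2 fold change of 0.54 ± 0.06 (limma adjusted p = 4.01e-07). Nars1, the asparaginyl-tRNA synthetase, ran from 0.33 to 0.68 in animals given 2000 mg/kg (median 0.46), against -0.10 to 0.0046 in vehicle animals (median -0.07). Its log2 fold change was 0.53 ± 0.09 (limma adjusted p = 4.09e-05), again without overlap.

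Lars1, Iars1 and Vars1, which charge the branched-chain amino acids leucine, isoleucine and valine, rose by similar amounts. Lars1 ran from 0.12 to 0.48 in animals given 2000 mg/kg (median 0.37), against -0.18 to -0.0026 in vehicle animals (median -0.07). Iars1 ran from 0.09 to 0.60 in animals given 2000 mg/kg (median 0.36), against -0.18 to 0.06 in vehicle animals (median -0.08). Vars1 ran from 0.12 to 0.47 in animals given 2000 mg/kg (median 0.30), against -0.18 to 0 in vehicle animals (median -0.11). None of the 3 overlapped between groups. The log2 fold changes were 0.41 ± 0.07 for Lars1, 0.40 ± 0.09 for Iars1 and 0.38 ± 0.06 for Vars1, with limma adjusted p between 3.83e-05 and 0.0011.

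The other rises at day 8 were smaller. Rars1 (arginine) rose by 0.29 ± 0.06, Gars1 (glycine) by 0.27 ± 0.08, Farsa, the alpha subunit partnered with Farsb, by 0.26 ± 0.07, Mars1 (methionine) by 0.26 ± 0.06 and Sars1 (serine) by 0.23 ± 0.07. Groups overlapped for Gars1, Mars1 and Sars1. The Gars1 rise missed the threshold without 2000 mg/kg replicate 3 (0.22, adjusted p = 0.0593) or replicate 4 (0.20, adjusted p = 0.0639) and in a fit of the compared groups alone (adjusted p = 0.0696), and that of Sars1 without either of the same 2 animals or without vehicle replicate 2, 5 or 6 (adjusted p between 0.0508 and 0.0765). Kars1 (lysine) had a log2 fold change of 0.17 ± 0.06 and an adjusted p of 0.0591. It did not pass, although its treated animals, at 0.10 to 0.26, did not overlap the vehicle animals at -0.06 to 0.07. In all, 9 cytosolic members had every treated animal above every vehicle animal, in a comparison where 5.84% of all clusters did, and 0 lay fully below, where 5.19% of all clusters did.

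Aars1, the alanyl-tRNA synthetase, was the cytosolic member that fell. It ran from -0.32 to 0 in animals given 2000 mg/kg (median -0.20), against -0.05 to 0.10 in vehicle animals (median -0.0043). The groups overlapped, and the log2 fold change was -0.17 ± 0.05 (limma adjusted p = 0.0249). The call was lost without 2000 mg/kg replicate 1 (-0.14, adjusted p = 0.0774), replicate 3 (adjusted p = 0.053) or replicate 6 (adjusted p = 0.0588), or without vehicle replicate 3 (adjusted p = 0.0654). Tars1 (threonine) had -0.15 ± 0.08, with a 95% interval of -0.31 to 0.02. Cars1 (cysteine), Eprs1, the fused glutamyl- and prolyl-tRNA synthetase, and Qars1 (glutamine) had log2 fold changes of 0.04, 0.06 and -0.03, none past the test.

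Among mitochondrial enzymes Rars2, the arginyl-tRNA synthetase, rose most at day 8. It ran from 0.15 to 0.40 in animals given 2000 mg/kg (median 0.21), against -0.17 to 0.0062 in vehicle animals (median -0.08). The groups did not overlap, with a log2 fold change of 0.31 ± 0.07 (limma adjusted p = 0.00276). Yars2 (tyrosine) rose by 0.30 ± 0.10 without overlap and Fars2 (phenylalanine) by 0.22 ± 0.06 with overlap. The Yars2 call (limma adjusted p = 0.0459) was lost without any of 9 animals, namely vehicle replicates 2, 3, 4 and 5 and 2000 mg/kg replicates 2, 3, 4, 5 and 6, with log2 fold changes of 0.23 to 0.32, and with array medians subtracted (0.30, adjusted p = 0.0518).

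Tars2, the mitochondrial threonyl-tRNA synthetase, fell at day 8. It ran from -0.29 to -0.09 in animals given 2000 mg/kg (median -0.14), against -0.09 to 0.11 in vehicle animals (median 0.05). The ranges overlapped only at their ends, and the log2 fold change was -0.17 ± 0.04 (limma adjusted p = 0.00425). Nars2 (-0.14), Aars2 (-0.10), Sars2 (0.01), Hars2 (0.04), Vars2 (0.13), Pars2 (0.14) and Lars2 (0.15) did not pass.

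**Figure D1:**
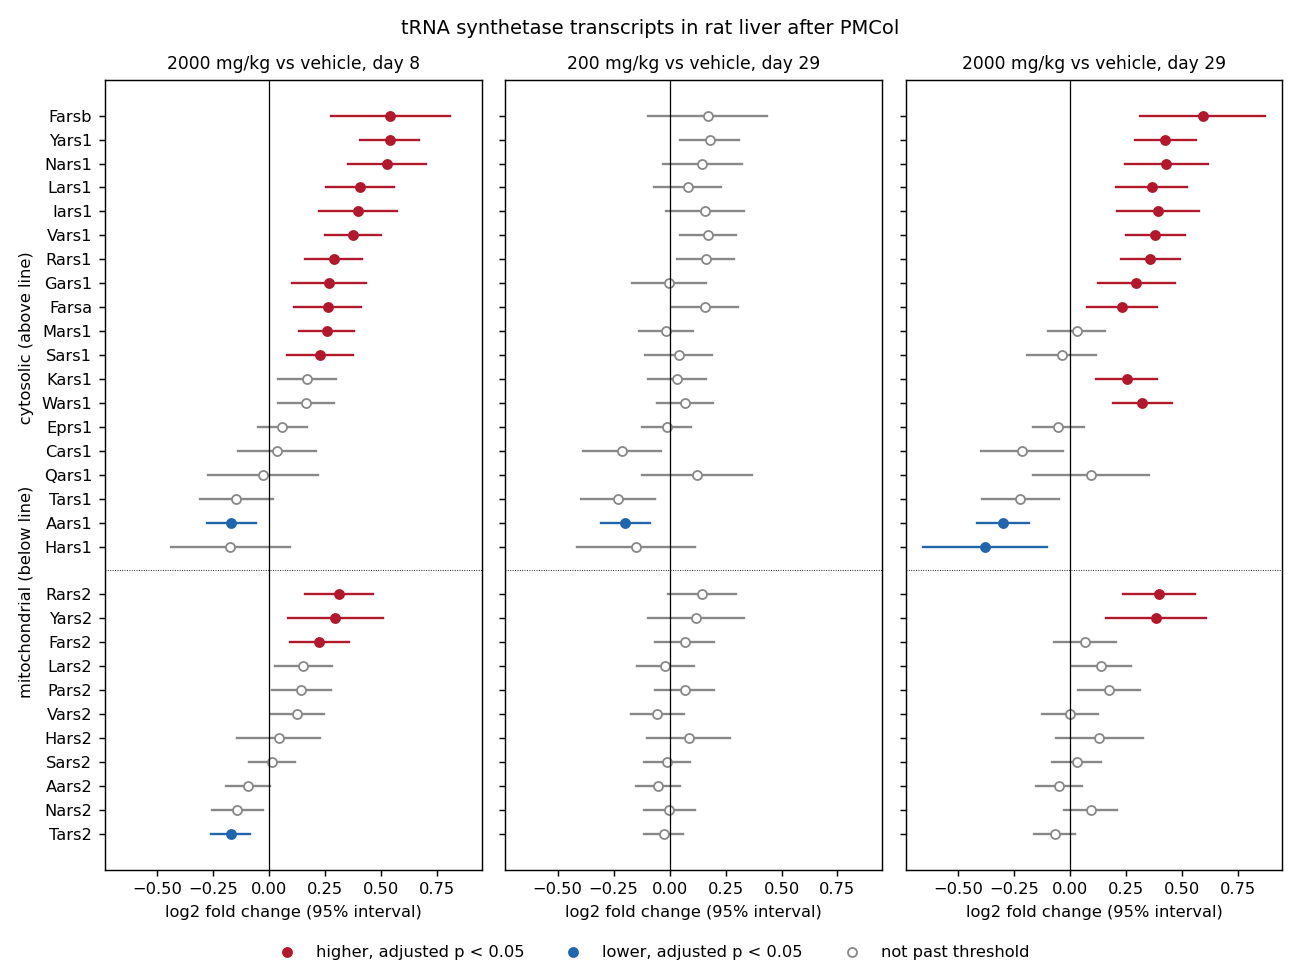
Log2 fold change (x axis) of each synthetase gene (rows, cytosolic above the dotted line and mitochondrial below) for 2000 mg/kg against vehicle at day 8, 200 mg/kg against vehicle at day 29 and 2000 mg/kg against vehicle at day 29. Points are limma estimates and bars their 95% intervals, and red marks higher, blue lower and white neither at adjusted p under 0.05. At 2000 mg/kg 11 cytosolic genes are red on each day, and at 200 mg/kg only Aars1 is coloured, blue at -0.20.

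The same comparison after 28 doses, at day 29, gave 11 higher and 2 lower among the 19 cytosolic members and 2 higher and 0 lower among the 11 mitochondrial ones. Over all clusters 21.6% passed, 12.1% higher and 9.55% lower, against 68.4% of the cytosolic and 18.2% of the mitochondrial members. Among clusters with a single symbol 26.1% passed, so the mitochondrial share was no higher than the background at this time. Median log2 fold changes were 0.25 for cytosolic and 0.09 for mitochondrial members, beside 0.0025 over all clusters.

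Farsb was again the largest rise, but its spread was wide. It was 0, 0.14, 0.24, 0.45 and 0.63 in the 5 animals given 2000 mg/kg, against -0.997 to 0.0038 in vehicle animals (median -0.22, n = 6). The groups overlapped by the lowest treated animal, and the log2 fold change was 0.59 ± 0.14 (limma adjusted p = 0.0018). The lowest vehicle value belonged to replicate 1, whose array lay farthest of all 29 from its own group's means (SD of the deviations 0.235, against 0.185 for the next, vehicle day 29 replicate 2). Without that vehicle array the Farsb log2 fold change was 0.45 (adjusted p = 0.00337).

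Yars1 and Nars1 kept every treated animal above every vehicle animal. Yars1 was 0.24, 0.26, 0.30, 0.33 and 0.26 in animals given 2000 mg/kg, against -0.24 to -0.02 in vehicle animals (median -0.16), and rose by 0.43 ± 0.07 (limma adjusted p = 2.4e-05). Its treated animals were close together, with an SD of 0.04, against 0.22 in those given 2000 mg/kg for 7 doses. Nars1 was 0.11, 0.22, 0.16, 0.33 and 0.64 in animals given 2000 mg/kg, against -0.40 to -0.02 in vehicle animals (median -0.08), and rose by 0.43 ± 0.09 (limma adjusted p = 0.000689). Replicate 5 of the treated animals was well above the other 4.

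Iars1 and the mitochondrial Rars2 and Yars2 complete the 6 largest changes at day 29. Iars1 was 0.19, 0, 0.01, 0.24 and 0.36 in animals given 2000 mg/kg, against -0.46 to -0.05 in vehicle animals (median -0.21), a log2 fold change of 0.39 ± 0.09 without overlap. Rars2 was 0.02, 0.26, 0.12, 0.21 and 0.29 in animals given 2000 mg/kg, against -0.62 to 0.0075 in vehicle animals (median -0.16), a log2 fold change of 0.40 ± 0.08 (limma adjusted p = 0.00034). Its groups did not overlap. Yars2 was 0.06, 0.11, -0.05, 0.21 and 0.17 in animals given 2000 mg/kg, against -0.78 to -0.04 in vehicle animals (median -0.24), and rose by 0.38 ± 0.11 with overlap in 1 animal (limma adjusted p = 0.0112). The lowest vehicle value of both mitochondrial genes was again replicate 1. Without it Rars2 stood at 0.32 (adjusted p = 0.000447) and Yars2 at 0.28 (adjusted p = 0.0327).

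Vars1 (0.38 ± 0.06), Lars1 (0.36 ± 0.08), Rars1 (0.36 ± 0.06), Wars1 (0.32 ± 0.06), Gars1 (0.30 ± 0.08), Kars1 (0.25 ± 0.07) and Farsa (0.23 ± 0.08) also rose at day 29. The Kars1 call was lost in a fit of the compared groups alone (adjusted p = 0.0607), and that of Farsa under quantile normalization (0.20, adjusted p = 0.0682) and without vehicle replicate 3 or 5 or 2000 mg/kg replicate 2, 4 or 5 (adjusted p from 0.0506 to 0.0937). Wars1, the tryptophanyl-tRNA synthetase, is known to be induced by interferon. In the same comparison 1 of 15 measured interferon response genes rose and 0 fell, where 21.6% of all clusters passed. At an unadjusted p under 0.05, 4 were higher and 0 lower, and the list median was 0.13. A link between these genes and Wars1 was not tested.

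Aars1 fell at day 29 too. It was -0.02, -0.17, 0.03, -0.06 and -0.04 in animals given 2000 mg/kg, against 0.12 to 0.37 in vehicle animals (median 0.26), so that all treated animals lay below all vehicle animals. The log2 fold change was -0.30 ± 0.06 (limma adjusted p = 0.000196). These vehicle animals themselves stood above those of day 8, which ran from -0.05 to 0.10 (median -0.0043). Hars1, the histidyl-tRNA synthetase, was also called lower, at -0.38 ± 0.14 (limma adjusted p = 0.0441), but the 2 Hars1 clusters disagreed. The other cluster stood at 0.12 ± 0.09 (adjusted p = 0.395) and the mean of both at -0.13 (adjusted p = 0.34), so Hars1 is given as uncertain. Its call was also lost without any of vehicle replicates 1, 2, 3 and 5 or any of the 5 treated animals (adjusted p from 0.0506 to 0.111). The RefSeq promoter windows of Hars1 and Hars2 share 243 bases, since these neighbouring genes are read in opposite directions.

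In all, 7 cytosolic members lay fully above and 2 fully below vehicle at day 29, where 6.43% of all clusters lay above and 4.99% below. The 2 below, which are also the 2 counted as lower, were Aars1 and the uncertain Hars1, whose other cluster overlapped vehicle. Of mitochondrial members 1, Rars2, lay fully above. Mars1, Sars1 and Eprs1 had log2 fold changes of 0.03, -0.04 and -0.05, and Tars1 (-0.22, adjusted p = 0.0569) and Cars1 (-0.22, adjusted p = 0.0855) missed the threshold on the low side.

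**Figure D2:**
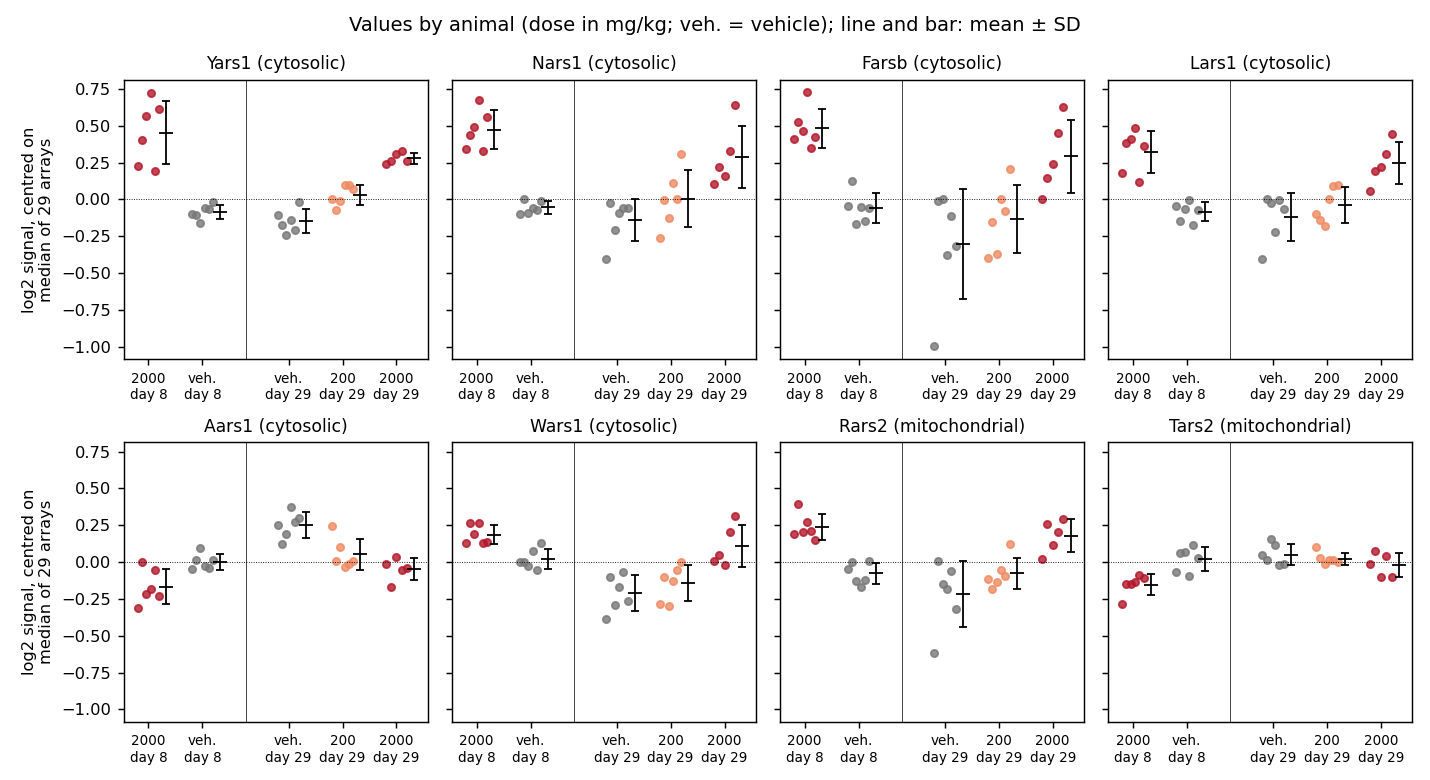
Centred log2 signal (y axis) of 8 synthetase genes in each of the 29 animals, by group, with the group mean and SD as a line and bar. Yars1 and Nars1 lie above both vehicle groups in every animal given 2000 mg/kg. Aars1 has lower means after PMCol than in vehicle animals of the same day, and its vehicle mean is 0.25 at day 29 and 0.0021 at day 8. The far low vehicle point at day 29 for Farsb (-0.997) and Rars2 (-0.62) is replicate 1.

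At 2000 mg/kg the days were compared with different vehicle animals, and the calls of both days were set side by side by gene. Of 11 higher on day 8 and 11 higher on day 29, 9 were higher on both: Farsa, Farsb, Gars1, Iars1, Lars1, Nars1, Rars1, Vars1 and Yars1. The share of all clusters called higher on both days was not counted, so 9 of 11 is not read as a trait of the synthetases. Mars1 and Sars1 passed on day 8 alone and Kars1 and Wars1 on day 29 alone, while Aars1 fell on both. Among mitochondrial members Rars2 and Yars2 rose on both days, Fars2 passed on day 8 alone and Tars2 fell on day 8 alone. A difference in call between days is not a difference in effect, so the change between days was tested. In that test 0 of 19 cytosolic and 0 of 11 mitochondrial members passed limma's adjusted p, with 2 and 1 at an unadjusted p under 0.05. Over all clusters 0.775% passed. The members at an unadjusted p under 0.05 were Mars1 (day 29 effect minus day 8 effect -0.23 ± 0.09, adjusted p = 0.211), Sars1 (-0.27 ± 0.10, adjusted p = 0.228) and Nars2 (0.24 ± 0.08, adjusted p = 0.16).

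Cars1, Eprs1, Qars1 and Tars1 among cytosolic enzymes and Aars2, Hars2, Lars2, Nars2, Pars2, Sars2 and Vars2 among mitochondrial ones passed in no comparison of PMCol with vehicle or between doses. Qars1 varied most of these 4 cytosolic genes, with an SD within groups of 0.219, and its vehicle replicate 1 at day 29 stood at -0.78. The SD within groups ran from 0.0698 for Tars2 to 0.238 for Farsb, with a median of 0.129 over cytosolic and 0.108 over mitochondrial members, beside 0.114 over all clusters.

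The lower dose asked whether a smaller amount moved the same genes by day 29. It is compared with the same vehicle animals as 2000 mg/kg, so the values of both doses share those animals. At 200 mg/kg 0 cytosolic members were higher and 1, Aars1, was lower, and 0 mitochondrial members passed, also at an unadjusted p under 0.05. Over all clusters 2.78% passed, 1.37% higher and 1.42% lower, so 1 of 19 (5.26%) is near the background. Cytosolic log2 fold changes ran from -0.23 for Tars1 to 0.18 for Yars1 with a median of 0.07, and mitochondrial ones from -0.05 for Vars2 to 0.14 for Rars2 with a median of -0.0019. No member lay fully above or below vehicle, where 0.83% of all clusters lay above and 0.684% below.

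Aars1 ran from -0.03 to 0.24 in animals given 200 mg/kg (median 0.0073), against 0.12 to 0.37 in vehicle animals (median 0.26). The groups overlapped, and the log2 fold change was -0.20 ± 0.05 (limma adjusted p = 0.0375). The call was lost without any of 8 animals, namely vehicle replicates 1, 4, 5 and 6 and 200 mg/kg replicates 2, 4, 5 and 6, and in a fit of the compared groups alone (adjusted p = 0.128). At an unadjusted p under 0.05 there were 7 cytosolic members, 4 higher and 3 lower. Beside Aars1 these were Yars1 (0.18, 95% interval 0.05 to 0.31), Vars1 (0.17, 0.05 to 0.30), Rars1 (0.16, 0.03 to 0.29) and Farsa (0.16, 0.0090 to 0.31) above 0, and Tars1 (-0.23, -0.39 to -0.07) and Cars1 (-0.21, -0.39 to -0.04) below it. Their adjusted p ran from 0.134 for Tars1 to 0.322 for Farsa.

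Over the vehicle, 200 and 2000 mg/kg groups at day 29, Yars1 medians were -0.16, 0.04 and 0.26. For Gars1 (glycine) they were -0.13, -0.12 and 0.18, and for Lars1 -0.04, -0.05 and 0.22. Set directly against 200 mg/kg, 2000 mg/kg had 8 of 19 cytosolic members higher and 0 lower (42.1%), and 1 of 11 mitochondrial members higher (9.09%), where 9.89% of all clusters passed, 6.05% higher and 3.84% lower. The median log2 difference was 0.20 over cytosolic and 0.06 over mitochondrial members, beside 0.0012 over all clusters.

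Farsb differed most between doses. It was 0, 0.14, 0.24, 0.45 and 0.63 at 2000 mg/kg, against -0.40 to 0.21 at 200 mg/kg (median -0.12), and the log2 difference was 0.42 ± 0.14 (limma adjusted p = 0.046) with overlapping groups. Gars1 was 0, 0.15, 0.18, 0.21 and 0.38 at 2000 mg/kg, against -0.17 to -0.0048 at 200 mg/kg (median -0.12), without overlap and with a difference of 0.30 ± 0.08 (adjusted p = 0.021). Nars1 differed by 0.28 ± 0.09, with 0.11, 0.22, 0.16, 0.33 and 0.64 at 2000 mg/kg, against -0.26 to 0.31 at 200 mg/kg (median -0.0022). Lars1 differed by 0.28 ± 0.08, with 0.06, 0.19, 0.22, 0.31 and 0.44 at 2000 mg/kg, against -0.18 to 0.10 at 200 mg/kg (median -0.05). Wars1, Yars1, Kars1 and Vars1, and the mitochondrial Rars2, passed with differences of 0.21 to 0.25. Gars1, Kars1 and Yars1 lay fully above the lower dose, as did 3.62% of all clusters, and 0 members lay fully below it, as did 2.5% of all clusters.

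These dose calls sat near the threshold. Without 2000 mg/kg replicate 5 the cytosolic count fell to 1 in place of 8, and without 2000 mg/kg replicate 4 it was 3. It was 4 or 5 without 2000 mg/kg replicate 2 or without 200 mg/kg replicate 1, 2, 3 or 5. In the first of these fits the log2 differences were 0.34 for Farsb, 0.25 for Gars1, 0.20 for Nars1, 0.23 for Lars1 and 0.23 for Rars2. The Nars1 adjusted p then was 0.189.

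The vehicle groups also differed between days in 2 members. Aars1 was higher at day 29, with 0.12 to 0.37 in vehicle animals of day 29 (median 0.26), against -0.05 to 0.10 in those of day 8 (median -0.0043), a difference of 0.25 ± 0.05 (limma adjusted p = 0.0144). Those groups did not overlap. Wars1 was lower at day 29, with -0.38 to -0.07 in vehicle animals of day 29 (median -0.22), against -0.05 to 0.13 in those of day 8 (median 0.0004), a difference of -0.23 ± 0.06 (limma adjusted p = 0.0366). The Wars1 call was lost without vehicle replicate 1, 2, 4 or 6 of day 8 or replicate 1, 3, 4 or 6 of day 29 (adjusted p up to 0.0929). Of 19 cytosolic members 1 was thus higher and 1 lower, and of 11 mitochondrial members 0 passed limma's adjusted p (1 at an unadjusted p under 0.05), where 2.73% of all clusters passed, 0.962% higher and 1.77% lower. Age and the number of gavages changed together between these days and cannot be told apart.

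Read as a mean over genes in each animal, the cytosolic synthetases averaged 0.19 ± 0.11 in animals given 2000 mg/kg at day 8 and -0.02 ± 0.02 in vehicle animals (SD, n = 6 each), and the ranges, 0.06 to 0.33 against -0.06 to 0.01, did not overlap. The mitochondrial mean was 0.08 ± 0.06 in animals given 2000 mg/kg and 0.0010 ± 0.02 in vehicle animals (SD, n = 6 each), with overlap. The spread of the cytosolic mean was larger in treated than in vehicle animals, since replicates 1 and 5 stood at 0.06 and 0.08 and the other 4 between 0.17 and 0.33. Over vehicle, 200 and 2000 mg/kg at day 29, the cytosolic mean was -0.07 ± 0.08, -0.04 ± 0.07 and 0.08 ± 0.09 and the mitochondrial mean -0.07 ± 0.09, -0.04 ± 0.06 and 0.05 ± 0.07 (SD, n = 6, 6 and 5). Treated and vehicle ranges overlapped at day 29 for both classes, and the vehicle group held replicate 1 at -0.23 for the cytosolic mean.

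The cytosolic mean minus the mitochondrial mean within each animal was 0.11 ± 0.06 at 2000 mg/kg and -0.02 ± 0.02 in vehicle animals at day 8 (SD, n = 6 each). All 6 treated animals were at 0.03 or above, and all 6 vehicle animals were below 0. Over vehicle, 200 and 2000 mg/kg at day 29 the difference was -0.0011 ± 0.07, 0.0049 ± 0.04 and 0.04 ± 0.02 (SD, n = 6, 6 and 5), and the ranges overlapped. No test was made of these means, because the genes in them were chosen with results of these data known, so a difference between the compartments was described and not tested.

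**Figure D3:**
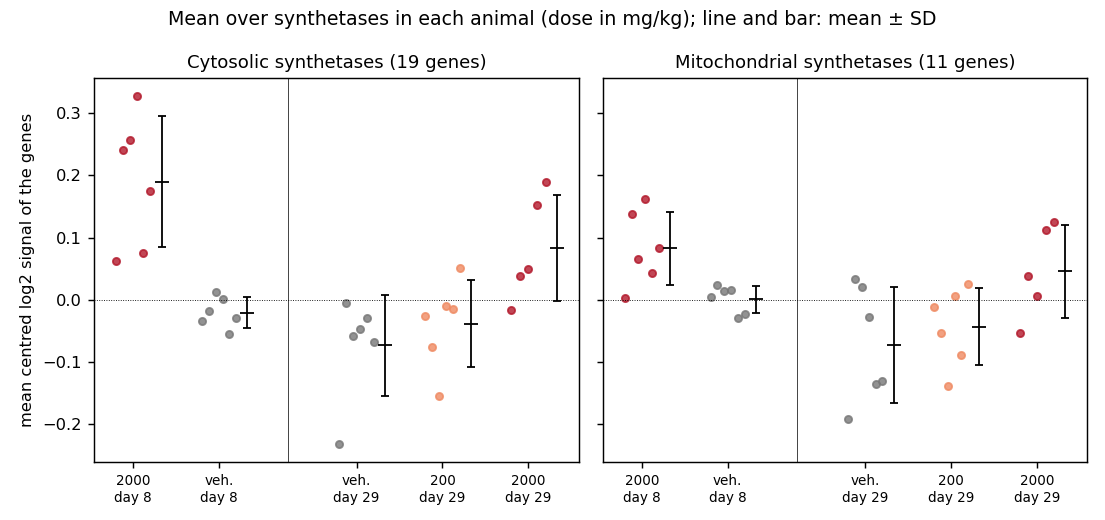
Mean centred log2 signal over the 19 cytosolic (left) and 11 mitochondrial (right) synthetases in each animal (y axis), by group (x axis), with the group mean and SD. At day 8 all animals given 2000 mg/kg lie above all vehicle animals for the cytosolic genes but not for the mitochondrial ones, and the lowest vehicle animal at day 29, replicate 1, is at -0.23 and -0.19.

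Cytosolic enzymes inside and outside the multisynthetase complex had medians of similar size, a contrast that was not tested. Of the 7 measured members of the complex (Eprs1, Iars1, Kars1, Lars1, Mars1, Qars1 and Rars1), 4 rose and 0 fell on day 8 and on day 29, with medians of 0.26 and 0.25, where 18.6% and 21.6% of all clusters passed. Of the 12 outside it, 7 rose and 1 fell on day 8 and 7 rose and 2 fell on day 29, with medians of 0.24 and 0.26. The scaffold gene Eef1e1 rose on both days (0.19 ± 0.06 and 0.22 ± 0.06, limma adjusted p = 0.0244 and 0.0118). Aimp2 had 0.26 ± 0.10 on day 8 (adjusted p = 0.063) and rose by 0.46 ± 0.10 on day 29 (adjusted p = 0.00127). Aimp1 had 0.16 ± 0.09 and 0.24 ± 0.09, neither past the test.

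Of 5 measured genes for other enzymes that make aminoacyl-tRNA, Pstk, the kinase on the path to selenocysteinyl-tRNA, rose by 0.32 ± 0.09 on day 8 and 0.43 ± 0.09 on day 29. Tars3, a threonyl-tRNA synthetase close in sequence to Tars1, rose by 0.27 ± 0.08 and 0.36 ± 0.08, although Tars1 did not. Gatc, a subunit of the enzyme that makes mitochondrial glutaminyl-tRNA, passed on day 29 alone, with 0.21 ± 0.06. The change between days passed for 0 of the 5 genes (lowest limma adjusted p = 0.224), where 0.775% of all clusters passed.

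A list of ATF4 targets other than synthetases, together with stress regulators such as Atf4 itself, had a wider range of changes, in both directions. Of 31 measured, 17 rose and 2 fell on day 8 and 13 rose and 7 fell on day 29, with medians of 0.50 and 0.12. The shares called were 61.3% and 64.5%, where 18.6% and 21.6% of all clusters passed. Asns, the asparagine synthetase, rose by 2.57 ± 0.19 on day 8 and 2.69 ± 0.19 on day 29, Slc7a5, a carrier of large neutral amino acids, by 1.41 ± 0.12 and 1.37 ± 0.13, and Psat1, of serine synthesis, by 1.89 ± 0.20 and 1.32 ± 0.21. Psat1 had 2 clusters, and its values are those of the lowest probe number alone. Phgdh, the first enzyme of serine synthesis, rose by 1.15 ± 0.13 on day 8. Xpot, which exports tRNA from the nucleus and was picked after its values were seen, rose by 0.53 ± 0.08 and 0.65 ± 0.08. Atf4 itself rose on day 8 (0.32 ± 0.10, limma adjusted p = 0.0155) and stood at -0.18 ± 0.10 on day 29 (adjusted p = 0.234).

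Other stress regulators of the same list fell at day 29. Atf3, a stress transcription factor, fell by 1.83 ± 0.63. Ppp1r15a, the stress-induced subunit of the eIF2 phosphatase, fell by 1.76 ± 0.25. The change between days passed for 3 of the 31 genes of the list, 1 higher and 2 lower, where 0.775% of all clusters passed. A call on 1 day alone, as for Atf4, is not by itself a difference between days. At 200 mg/kg Asns rose by 0.96 ± 0.19 (limma adjusted p = 0.00307) and Pycr1, of proline synthesis, by 0.34 ± 0.09, and Chac1, a glutathione-degrading enzyme, fell by 0.80 ± 0.18. The same dose called no synthetase higher. The Asns, Ddit3, Psat1 and Phgdh promoter windows held no match to the letters searched, and those of Chac1 and Trib3 held 1 each.

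Among the eIF2 kinases and partners, Eif2ak4, the kinase that senses uncharged tRNA, rose at day 29 (0.31 ± 0.05, limma adjusted p = 6.8e-05). At day 8 it did not pass (0.11 ± 0.05, adjusted p = 0.156). Its activating partner Gcn1 rose by 0.18 ± 0.06 on day 8, near the threshold (limma adjusted p = 0.0489), and by 0.33 ± 0.07 on day 29. Of the 5 measured genes 1 passed on day 8 and 2 on day 29, where 18.6% and 21.6% of all clusters passed. Their log2 fold changes ran from -0.06 to 0.40 on day 8 and from 0.08 to 0.52 on day 29. The change between days passed for 0 of the 5 (lowest limma adjusted p = 0.187), where 0.775% of all clusters passed. These values describe transcripts, and no file here measures tRNA charging or protein.

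Other parts of the translation machinery had smaller medians at 2000 mg/kg than the cytosolic synthetases, 0.07 and 0.16 on days 8 and 29 for elongation and termination factors and -0.02 and 0.08 for mitochondrial translation factors. Of 8 cytosolic elongation and termination factors 0 passed on day 8 (2 at an unadjusted p under 0.05, both higher) and 3 rose on day 29, Eef1g by 0.24 ± 0.04, Eef2 by 0.21 ± 0.04 and Eif5a by 0.17 ± 0.06. Of 6 mitochondrial translation factors 2 fell on day 8. These were Mrrf, a ribosome recycling factor, by 0.20 ± 0.06, and the elongation factor Tufm, by 0.14 ± 0.05. On day 29 Mrrf fell by 0.27 ± 0.06. The shares called on days 8 and 29 were 0% and 37.5% of the cytosolic and 33.3% and 16.7% of the mitochondrial factors. Over all clusters 18.6% and 21.6% passed. Of 67 mitochondrial ribosomal protein genes 16 rose and 4 fell on day 8 and 18 rose and 3 fell on day 29, with medians of 0.08 and 0.07. The shares called were 29.9% and 31.3%, beside 23.5% and 26.1% of all clusters with a single symbol. Most of these calls were rises. Of the 15097 clusters with a single symbol, 1815 were higher and 1736 lower on day 8, and 2274 higher and 1665 lower on day 29. Mrpl49 and Mrps2 rose by 0.66 ± 0.12 and 0.44 ± 0.07 on day 8 and by 0.84 ± 0.12 and 0.57 ± 0.07 on day 29. The median of the mitochondrial synthetases, 0.13 and 0.09, lay near that of the mitochondrial ribosomal proteins.

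**Figure D4:**
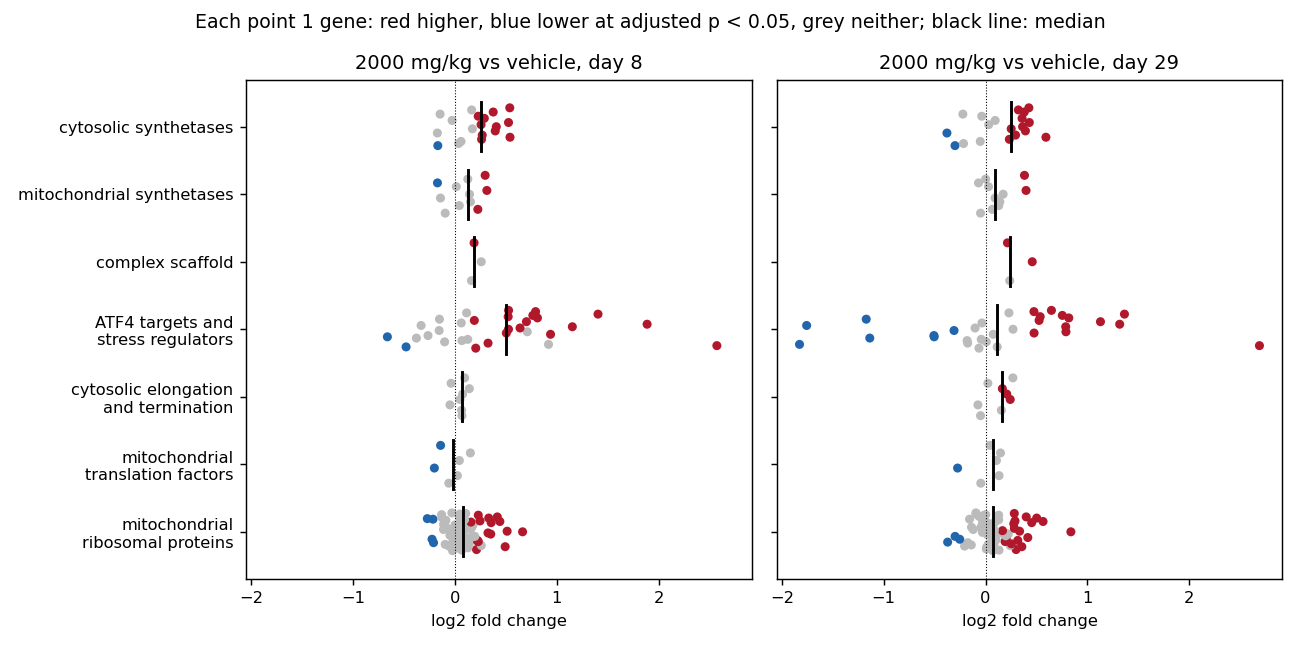
Log2 fold change (x axis) of each gene (points) in 7 gene lists (rows) for 2000 mg/kg against vehicle at day 8 and day 29, with the list median as a black line and red, blue and grey for higher, lower and neither at adjusted p under 0.05. The cytosolic synthetases cluster to the right of 0 with medians of 0.26 and 0.25, within a narrower range than the ATF4 list, whose day 29 falls reach -1.83.

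Markers of other liver cells changed with the high dose, and their part in the synthetase results was not tested. Over all clusters 18.6% passed at day 8, 21.6% at day 29, 9.89% between doses and 2.73% between vehicle days. All 11 measured macrophage markers were lower in 2000 mg/kg than vehicle animals at day 8, with a mean over the list of -0.66 to 0.11 in treated and 0.38 to 1.32 in vehicle animals. At day 29 0 of the 11 passed, also at an unadjusted p under 0.05, and list means were -0.81 to 0.50 in treated and -0.58 to 0.87 in vehicle animals. Vehicle animals of day 29 had all 11 markers lower than those of day 8. Of 10 stellate cell markers 1 rose and 3 fell at day 8, and 0 rose and 8 fell at day 29. Their list means at day 29 were -0.44 to -0.25 in treated and 0.03 to 0.47 in vehicle animals. At 2000 against 200 mg/kg 0 of them were higher and 7 lower. Of 6 hepatocyte markers 4 were lower at day 8, 2 at day 29 and 2 at 2000 than at 200 mg/kg. Their list means at day 8 were -0.23 to -0.06 in treated and -0.12 to 0.11 in vehicle animals. Erythrocyte markers were lower in 2 of 3 at day 8 and 0 of 3 at day 29. Of the 2 measured bile duct markers, Epcam, an epithelial adhesion protein, rose by 0.82 ± 0.11 at day 8 and 0.88 ± 0.12 at day 29 and was higher by 0.63 ± 0.12 at 2000 than at 200 mg/kg, while Krt19 did not pass. The mean of both was 0.08 to 0.44 in treated and -0.32 to -0.06 in vehicle animals at day 8, and 0.02 to 0.52 in treated and -0.40 to 0.14 in vehicle animals at day 29. Of 4 endothelial markers 2 were lower at day 8, 0 passed at day 29 (1 at an unadjusted p under 0.05) and 1 was lower at 2000 than at 200 mg/kg. Of 9 T, B and NK cell markers 3 were lower at day 8 and 0 passed at day 29, also at an unadjusted p under 0.05. At day 8 interferon response genes had 1 of 15 higher and 4 lower (1 and 10 at an unadjusted p under 0.05). Wars1 then had 0.16 ± 0.06 (adjusted p = 0.0619).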

How the data were processed

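Each animal's liver RNA was read on 1 Affymetrix whole-transcript array, per the labels' protocols. The deposited table holds centred log2 values of 27342 transcript clusters, every cluster having a median of 0 over 29 arrays. PLIER and MAS5 are the tools named in the submitters' processing notes. The log base was taken as 2. How arrays were normalized, and whether an offset was added, is not given in the sources used here. The number of arrays limits the precision. No slide or scan information was used. Symbols came from the platform annotation, with 1 symbol for 15097 clusters. Genes with several clusters were read from the lowest probe number.

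Groups were compared on the log2 values as the authors gave them by limma 3.58.1 (R 4.3.3), in 1 linear model of 5 groups over all animals, with empirical Bayes moderation and two-sided p-values adjusted by Benjamini-Hochberg over all clusters. The step was tested on simulated data. Intervals of 95% come from the moderated fit. Members, gene lists, motif and the rule for named genes (the 6 largest called members per comparison with vehicle, extreme mitochondrial members, up to 4 for other comparisons and per list) were chosen with earlier results of these data known. Same-numbered animals of different groups deviated with correlations of -0.282 to 0.295 over 56 pairs, so numbers did not pair animals. The highest correlation of 2 arrays was 0.725. Alternatives were other normalization, centring, feature sets, fits, weights, a replicate block, a threshold of 0.01, cluster means and leaving out each animal. Leaving out both far vehicle arrays was added after seeing the data. The promoter sequence of Aars1 is not reported here. Plots used matplotlib 3.10.9.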

Additional observations from a re-analysis of the deposited data

Results flagged for a closer look

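In 8 of 165 group and measure combinations, 1 animal stood far from the rest of its group by Dixon's test, close to the 1 in 20 that chance gives. At 2000 mg/kg on day 8, replicate 1 was lowest for Eprs1, at -0.19 against a median of 0.02 in the other animals, and for Tars2, at -0.29 against -0.14. At 2000 mg/kg on day 29, replicate 4 was highest for Sars1, at 0.13 against -0.05, and replicate 2 for Vars2, at 0.12 against -0.0010. At 200 mg/kg on day 29, replicate 1 was highest for Tars2, at 0.10 against 0.01. In vehicle animals of day 29, replicate 6 was lowest for Vars1, at -0.38 against -0.15, and replicate 5 for Sars2, at -0.22 against -0.0066. The mean over cytosolic synthetases was lowest in vehicle replicate 1 of day 29, at -0.23 against -0.05, the array that also lay farthest from its group over all clusters.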

How the results depend on the processing

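The counts of called cytosolic synthetases at 2000 mg/kg against vehicle stayed within 1.5 times of their values under every alternative run, with 9 to 12 at day 8 and 11 to 13 at day 29 when each animal was left out. Without both far vehicle arrays of day 29, 10 cytosolic members were higher and 1 lower, and Farsa (0.21, adjusted p = 0.0933) and Hars1 (adjusted p = 0.0727) were lost. With adjusted p under 0.01, mitochondrial counts were 2 at 2000 mg/kg on day 8 (4 at 0.05) and 1 on day 29 (2 at 0.05), and leaving out animals gave 3 to 5 and 2 to 4. The 4 arose without vehicle day 29 replicate 4. At 200 mg/kg the cytosolic count, 1 in the report, was 0 with adjusted p under 0.01, 0 with only the groups compared, 2 with array weights and 0 with the replicate block, and 0 to 2 without 1 animal. For 2000 against 200 mg/kg it was 1 with adjusted p under 0.01 and 4 with only the groups compared, beside 8, and 1 to 9 without 1 animal, and the mitochondrial count was 0 with adjusted p under 0.01 and 0 to 1 without 1 animal. Between vehicle days the cytosolic count was 0 with adjusted p under 0.01 and 1 with only the groups compared, beside 2, and 1 to 4 without 1 animal, where the 4 arose without vehicle day 29 replicate 2, and the mitochondrial count was 0 to 1. The replicate block otherwise gave 14 and 13 cytosolic members at 2000 mg/kg on days 8 and 29, 8 between doses and 3 between vehicle days, and 3 of 29 animals correlated best with their own number. No member called at 0.05 changed sign under any alternative run, and 17 of 43 calls were lost under at least 1 of them at 0.05. None of these runs read Hars1 from its other cluster alone, which stood at 0.12 at 2000 mg/kg on day 29. The causes were not tested beyond fewer animals or a stricter threshold in these fits.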
